A study of Sorghum bicolor with 12 samples.

Results

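Vacuolar invertases are soluble acid enzymes that split sucrose into glucose and fructose inside the vacuole, where sorghum, like sugarcane, stores much of its sugar. They set how much imported sucrose is kept as such and how much is turned into hexoses for growth and turgor, and low soluble acid invertase activity is a known companion of sucrose storage in ripening stems of sugarcane. In maize, the genes of this family are known to be controlled by sugars in opposite directions, Ivr1 being repressed and Ivr2 induced. Here the family was represented by 2 loci, Sb04g000620 and Sb06g023760, chosen by locus name among 35465 annotated sorghum loci with a probe on the array (41977 probes in all, those to expressed sequence tags included). Each locus had 1 probe, printed as 1 spot. Sb06g023760 lies on chromosome 6 at 52800327 to 52804695, plus strand, on a genome release that the study does not name, and is annotated as similar to beta-fructofuranosidase 1 precursor, another name for an invertase. Sb04g000620 lies on chromosome 4 by its locus name, is called a vacuolar invertase only by the locus list used here, and its coordinates were not analysed here. Sb06g023760 is also in the study's own list of carbohydrate genes regulated by sucrose, which was picked from these arrays, so its direction over time is not independent evidence.

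The samples were whole 14-day-old seedlings of Keller, a sweet sorghum, and BTX623, a grain sorghum, washed and placed in 5% sucrose solution. They were collected at 0, 2 and 6 h, with 2 biological replicates of each cultivar and time, and RNA was hybridised to 12 single-colour arrays on 3 slides of 4 arrays. No seedlings were kept for 2 or 6 h without sucrose, so sucrose, handling and time of day cannot be told apart, and in whole seedlings fewer cells of a type and less RNA per cell cannot be told apart. Levels are given as log2 of the scanner's processed signal over the 75th percentile of its array, on which 1 unit is a factor of 2 and 0 is a signal equal to that percentile. The percentile lay between 332 and 697 signal units, and was 332 to 411 on slide 1 (all 3 Keller arrays of replicate 1 and the BTX623 0 h array of replicate 1) and 563 to 697 on the other slides. Both probes were well above background and not saturated on all 12 arrays. All 3 leaf marker loci and both root cap loci fixed for the check of tissue were also well above background on all 12 arrays, as the label of whole seedling has it. Between 28323 and 34664 of the design probes were well above background on an array. The small number of arrays limits the precision of every value below.

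Sb04g000620 was the locus with the wider range. Before sucrose its levels lay close together on all 4 arrays, at 4.01 and 4.15 in Keller (replicates 1 and 2) and 4.22 and 3.72 in BTX623. After 2 h they were 2.49 and 3.58 in Keller and 3.001 and 3.37 in BTX623. After 6 h they were 0.48 and 3.57 in Keller and −0.35 and 3.38 in BTX623. In both cultivars, therefore, replicate 1 was low at 6 h and replicate 2 was not, and the 6 h arrays of replicate 1 were the lowest of all 12. In processed signal, the 6 h arrays read 461 and 7531 in Keller and 447 and 6645 in BTX623, against 5612 and 12376 at 0 h in Keller and 7205 and 7828 at 0 h in BTX623.

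Sb06g023760 differed between the replicates before sucrose instead. Its 0 h levels were 3.13 and 0.79 in Keller (replicates 1 and 2) and 2.90 and 0.64 in BTX623. At 2 h the replicates had come together, at 2.13 and 1.81 in Keller and 1.68 and 1.44 in BTX623. At 6 h the levels were 0.72 and −0.20 in Keller and 0.67 and 0.27 in BTX623. Thus replicate 1 stepped down at each time in both cultivars, whereas replicate 2 was highest at 2 h in both, and the groups overlapped between 0 h and 6 h only in BTX623, where the 0 h array of replicate 2 (0.64) was below the 6 h array of replicate 1 (0.67).

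**Figure D1:**
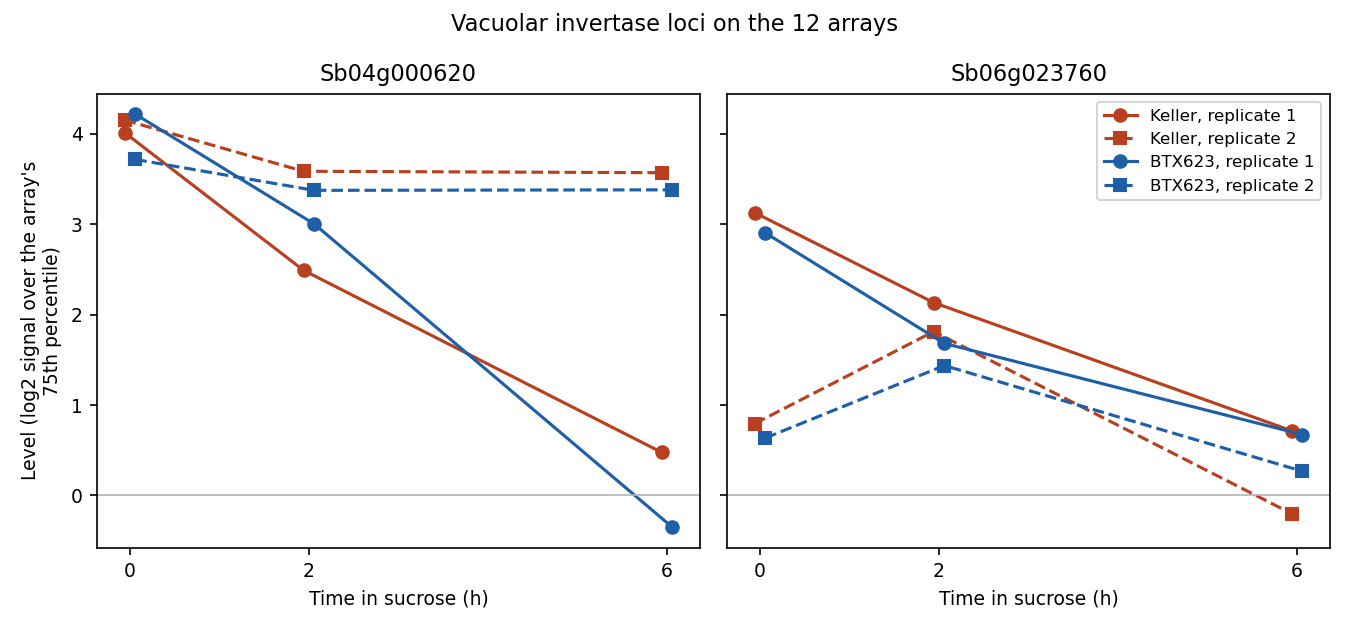
Level of each vacuolar invertase locus (log2 of the processed signal over the array's 75th percentile, vertical axis) against time in sucrose (h), 1 point per array; red is Keller and blue is BTX623, circles on full lines are replicate 1 and squares on broken lines replicate 2. The lines of a replicate run together in both cultivars: Sb04g000620 ended at 0.48 and −0.35 in replicate 1 and at 3.57 and 3.38 in replicate 2.

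Ordered by mean level, Sb04g000620 stood highest in Keller at 0 h (4.08 ± 0.10, SD, n = 2), then in BTX623 at 0 h (3.97 ± 0.35), BTX623 at 2 h (3.19 ± 0.26), Keller at 2 h (3.04 ± 0.77), Keller at 6 h (2.02 ± 2.19) and BTX623 at 6 h (1.51 ± 2.64). In this order BTX623 at 0 h and at 2 h were the only neighbours whose arrays did not overlap, with a gap of 0.78 between their means. For Sb06g023760 the order was Keller at 2 h (1.97 ± 0.23), Keller at 0 h (1.96 ± 1.65), BTX623 at 0 h (1.77 ± 1.60), BTX623 at 2 h (1.56 ± 0.17), BTX623 at 6 h (0.47 ± 0.29) and Keller at 6 h (0.26 ± 0.65). Here BTX623 at 2 h and at 6 h were the only neighbours that did not overlap, with a gap of 1.09.

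The first question the design put was how the loci stood after sucrose against before. Limma was fitted over all 6 groups, and a probe was called where its change reached 2-fold with a p under 0.05 after Benjamini-Hochberg adjustment. At 6 h against 0 h with the cultivars averaged, 0 of 2 loci were called, while 9.11% of 31949 probes were, 5.46% as lower and 3.65% as higher. The mean change was −2.26 for Sb04g000620 (SE 0.85, adjusted p = 0.115, unadjusted p = 0.0264) and −1.501 for Sb06g023760 (SE 0.59, adjusted p = 0.127, unadjusted p = 0.0313). Both loci were lower at 6 h than at 0 h in 4 of 4 pairs of arrays with the same cultivar and replicate number. With the replicate number as a block in the same limma fit, both loci were called, at adjusted p = 0.0412 for Sb04g000620 and 0.0256 for Sb06g023760, as were 13% of probes. With the slide as a block, Sb04g000620 was called (−2.69, adjusted p = 0.0382) and Sb06g023760 was not (−1.10, adjusted p = 0.0639). That fit called 2522 of 31949 probes as lower and 1779 as higher. Leaving out an array moved the change of Sb04g000620 between −3.19, without BTX623 at 6 h replicate 2, and −1.32, without BTX623 at 6 h replicate 1, and that of Sb06g023760 between −2.08, without Keller at 0 h replicate 2, and −0.92, without Keller at 0 h replicate 1.

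Within each cultivar the same comparison gave no call for either locus. In Keller, the mean difference was −2.06 for Sb04g000620 (95% interval −4.78 to 0.66, adjusted p = 0.443) and −1.70 for Sb06g023760 (−3.59 to 0.18, adjusted p = 0.349), where 2.22% of probes were called. In BTX623 the values were −2.45 for Sb04g000620 (−5.17 to 0.27, adjusted p = 0.313) and −1.30 for Sb06g023760 (−3.18 to 0.59, adjusted p = 0.447), where 2.96% of probes were called. The exact permutation test of times within cultivars, for the cultivars averaged, gave two-sided p = 0.0556 for Sb04g000620 (0.222 after adjustment over 12 such tests), which is the smallest p that its 36 arrangements allow, and p = 0.111 for Sb06g023760 (0.333 adjusted). With signs changed over arrays paired by cultivar and replicate number, the exact p was 0.125 for each locus (0.375 adjusted). This test was chosen after the values were seen, and its 16 arrangements allow no smaller p.

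At 2 h, 0 of 2 loci were called in either cultivar (0.156% of probes were in Keller and 0.175% in BTX623) or with the cultivars averaged (2.43%). Sb04g000620 was lower than at 0 h in 4 of 4 pairs, by 1.52 and 0.57 on the log2 scale in Keller (replicates 1 and 2) and by 1.22 and 0.34 in BTX623, and limma gave a mean change of −0.91 (SE 0.85, adjusted p = 0.631). Sb06g023760 went both ways, with changes of −0.99 and 1.02 in Keller and −1.22 and 0.80 in BTX623, whose mean was −0.10 (SE 0.59, adjusted p = 0.954). The replicates of each cultivar thus had opposite signs at this locus, and the mean hides changes of about a factor of 2 either way.

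Between 2 h and 6 h the picture of the loci was exchanged. Sb06g023760 was lower at 6 h in 4 of 4 pairs, with changes of −1.42 and −2.01 in Keller and −1.01 and −1.17 in BTX623. The mean, −1.40 (SE 0.59), was not called (adjusted p = 0.287, unadjusted p = 0.0412), where 1.20% of probes were. Fitted in limma on the 8 arrays of these times only, the same change was called (adjusted p = 0.0412). That fit called 632 probes, against 383 in the fit over all 12 arrays. Sb04g000620 differed by −2.01 and −0.02 in Keller and −3.35 and 0.01 in BTX623, so that replicate 2 held its 2 h level and replicate 1 did not. Its mean was −1.34 (SE 0.85, adjusted p = 0.504).

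**Figure D2:**
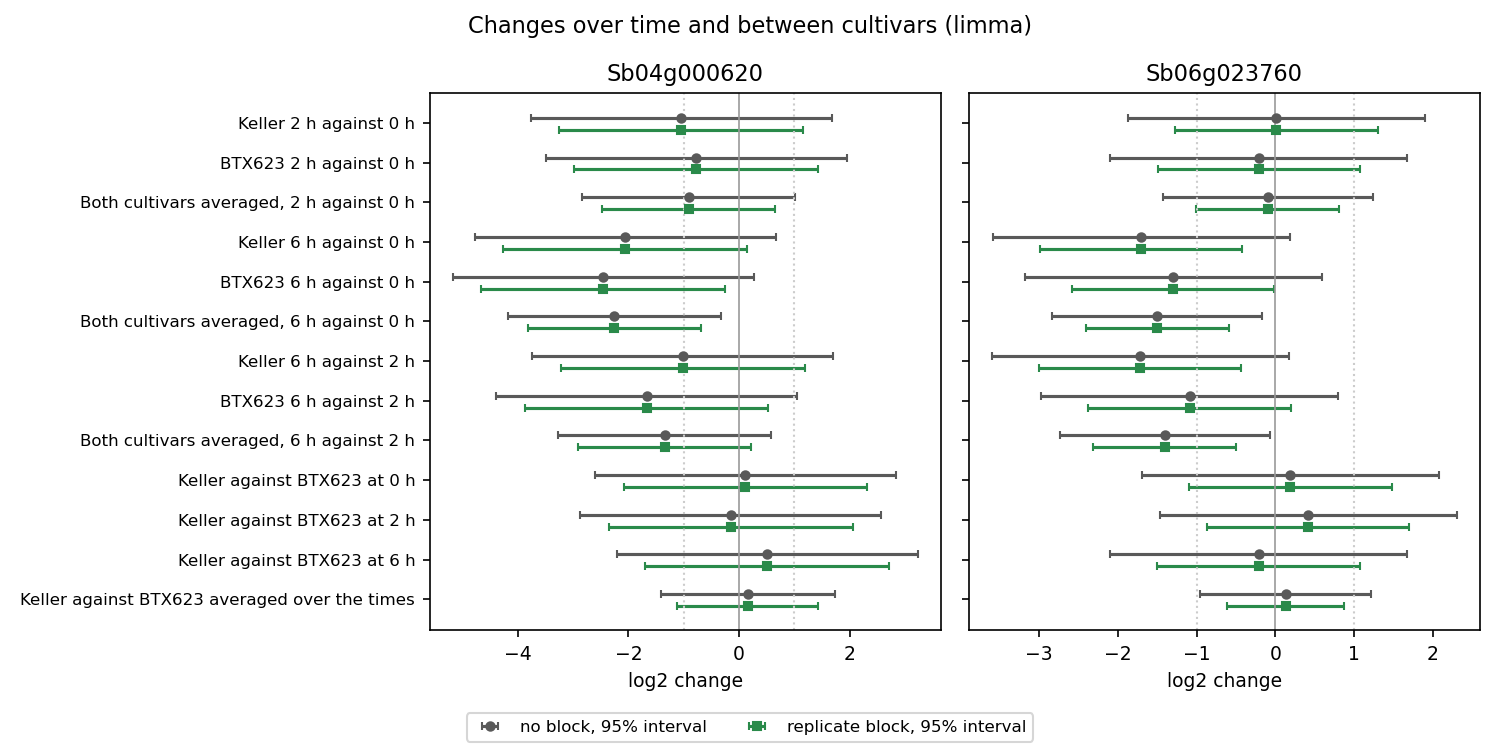
Log2 change (horizontal axis) of each locus in 13 comparisons over time and between cultivars, as points with 95% intervals from limma; grey circles are the fit with no block and green squares the fit with the replicate number as a block, and dotted lines mark a change of 2-fold. The intervals without the block exclude 0 only for both cultivars averaged, at 6 h against 0 h for both loci and at 6 h against 2 h for Sb06g023760.

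The second question was whether the sweet and the grain cultivar differed. Neither locus was called at 0 h, where 2.18% of probes were, at 2 h (2.34%), at 6 h (2.20%) or over the times averaged (5%). Averaged over the times, Sb04g000620 stood 0.16 higher in Keller (SE 0.69, 95% interval −1.41 to 1.73, adjusted p = 0.943) and Sb06g023760 0.13 higher (SE 0.48, 95% interval −0.96 to 1.22, adjusted p = 0.930). In a limma fit with a level for each replicate number and time, added after the values were seen, the same differences had 95% intervals of −0.21 to 0.52 for Sb04g000620 and −0.14 to 0.41 for Sb06g023760 (adjusted p of 0.506 and 0.465, 7.22% of probes called). With the slide as a further block these were −0.71 to 0.70 and −0.60 to 0.35. A difference of 2-fold thus lay outside the intervals of both fits by replicate number and time. These fits take the cultivar difference as constant and count each time as a separate pair. Blocking on the replicate number alone gave −1.11 to 1.43 for Sb04g000620, which held 2-fold in either direction. For Sb06g023760 this block gave −0.61 to 0.87, which did not hold it. With the slide as the only block, the intervals were −0.76 to 2.24 for Sb04g000620 and −1.13 to 0.32 for Sb06g023760. The first held 2-fold upwards and the second held it downwards. Without pairing, 2-fold lay inside the interval in either direction for Sb04g000620 and upwards for Sb06g023760. Paired by time and replicate number, Keller was higher in 4 of 6 pairs at Sb04g000620, with differences of −0.51 to 0.83, and in 5 of 6 pairs at Sb06g023760, with differences of −0.47 to 0.45. No pair of cultivars was as far apart as 2-fold. With cultivars permuted within time points, the exact two-sided p was 0.694 for Sb04g000620 and 0.676 for Sb06g023760 (0.963 adjusted for each). With signs changed over the 6 paired arrays, a test chosen after the values were seen, the exact p was 0.469 and 0.375.

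The changes over time in sucrose solution were compared between the cultivars by their difference. For the 6 h change, Keller minus BTX623, it was 0.39 for Sb04g000620 (SE 1.70, 95% interval −3.45 to 4.24) and −0.40 for Sb06g023760 (SE 1.18, 95% interval −3.07 to 2.26). For the 2 h change it was −0.27 (SE 1.70) and 0.22 (SE 1.18) for these loci. None of the 4 differences was called in limma (adjusted p of 0.999981 at 2 h and 0.999994 at 6 h), nor had any an unadjusted p under 0.05, and 0% of all probes were called in either contrast, with or without the replicate block. In the fit without the block, the spread between replicates counts as error.

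The spread between replicates ran alike in both cultivars. It was described with a limma fit, chosen after the values were seen, that gave each replicate number and time a level of its own and the cultivars a constant difference, so that its error is the disagreement between Keller and BTX623 (5 residual degrees of freedom before moderation). The 6 h change of Sb04g000620 was −4.05 (SE 0.28, adjusted p = 1.94e-05) within replicate 1 and −0.46 (SE 0.28, adjusted p = 0.262) within replicate 2, where 18.2% and 14.3% of probes were called. The fall in replicate 1 was 11.6-fold in Keller and 23.7-fold in BTX623, against 1.497-fold and 1.26-fold lower levels in replicate 2. The difference of these changes, replicate 1 minus replicate 2, was −3.59 (SE 0.39, adjusted p = 0.00136) and was called, as were 9.17% of probes. By size, 0.937% of probes in Keller and 0.398% in BTX623 had a difference as low as that of Sb04g000620 (−2.95 and −4.23).

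For Sb06g023760 the difference lay first at 0 h. Its level there was 2.30 higher in replicate 1 than in replicate 2 (SE 0.21, adjusted p = 2.25e-04), 5.04-fold in Keller and 4.81-fold in BTX623, in a contrast where 14.5% of probes were called. The 0 h level of Sb04g000620 differed by 0.18 between the replicates (SE 0.28, 95% interval −0.45 to 0.81, adjusted p = 0.663). The 2 h change of Sb06g023760 was −1.11 in replicate 1 and 0.91 in replicate 2, a difference of −2.02 (SE 0.30, adjusted p = 0.00889), where 4.99% of probes were called. Its 6 h change was −2.32 in replicate 1 (SE 0.21, adjusted p = 7.92e-05) and −0.68 in replicate 2 (SE 0.21, adjusted p = 0.0432, under 2-fold), a difference of −1.64 (SE 0.30, adjusted p = 0.0103). By size, 5.53% of probes in Keller and 4.86% in BTX623 had a difference in the 6 h change as low as that of Sb06g023760 (−1.42 and −1.86). From 2 h to 6 h, by contrast, it fell in both replicates, by 1.21 in replicate 1 (adjusted p = 0.00904, 5.68% of probes called) and by 1.59 in replicate 2 (adjusted p = 0.00226, 7.28% called).

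The replicate numbers lie partly on different slides, so changes within a slide were read separately. On slide 1, Keller of replicate 1 differed by −3.54 at Sb04g000620 and −2.41 at Sb06g023760 at 6 h against 0 h. On slide 3, BTX623 of replicate 2 differed by −0.34 and −0.37 over the same time. On slide 2, BTX623 of replicate 1 differed by −3.35 and −1.01 at 6 h against 2 h, set beside 0.01 and −1.17 for replicate 2 on slide 3. With the slide as a block, the difference of the 6 h changes was still called for Sb04g000620 (−3.68, adjusted p = 0.00846) and for Sb06g023760 (−1.65, adjusted p = 0.0247), whereas the 0 h difference of Sb06g023760 was not (1.74, adjusted p = 0.106). Whatever else set replicate 1 apart from replicate 2 cannot be told apart from the replicate number.

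**Figure D3:**
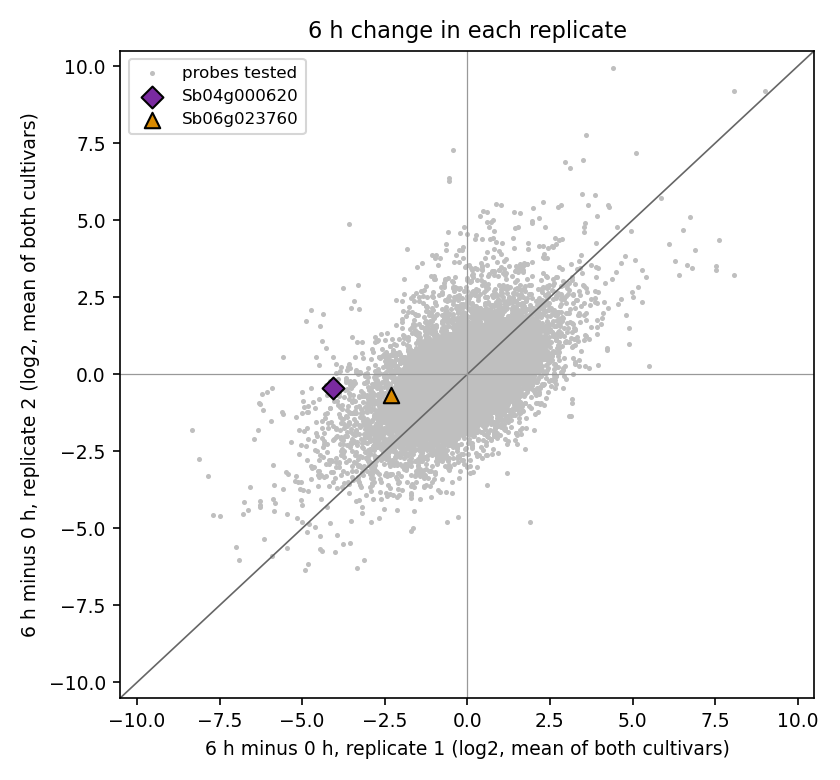
Change from 0 h to 6 h (log2, mean of both cultivars) in replicate 1 (horizontal axis) against replicate 2 (vertical axis) for the probes tested (grey), with Sb04g000620 as a purple diamond and Sb06g023760 as an orange triangle and the diagonal marking equal change. Sb04g000620 lies at −4.05 and −0.46 and Sb06g023760 at −2.32 and −0.68, both left of the diagonal.

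The loci therefore did not keep a fixed ratio. The log2 ratio of Sb04g000620 over Sb06g023760 on an array, which is free of the scaling, moved from its own 0 h value by −1.12 at 6 h in Keller and −2.34 in BTX623 in replicate 1, and by 0.41 and 0.03 in replicate 2. At 2 h it moved by −0.53 and 0.01 in replicate 1 and by −1.59 and −1.14 in replicate 2. Averaged over the replicates, the exact permutation test gave p = 0.722 for the 6 h shift of −0.75 and p = 0.389 for the 2 h shift of −0.81, and p = 0.972 for the cultivar difference of 0.03. Over the 12 arrays the levels of the loci had a Pearson r of 0.30, a description over arrays that share cultivars, times and replicates.

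Loci whose pattern was most like each member were sought among 23454 other loci well above background on all 12 arrays. The nearest to Sb04g000620 was Sb02g027570, annotated as similar to the cellulose synthase-like protein OsCslE1, with r = 0.96, followed by Sb10g012160, Sb01g018380, Sb03g006680 and Sb05g026090 (r of 0.94 to 0.95). Their 6 h changes were larger in replicate 1 in both cultivars, as for Sb03g006680 with −4.36 and −1.27 in Keller (replicates 1 and 2) and −5.37 and −1.19 in BTX623. These loci were chosen by likeness over the same 12 arrays, so a shared replicate pattern follows from the choice and is no separate evidence. The nearest to Sb06g023760 was Sb01g042050, with r = 0.99, followed by Sb03g004370, Sb01g028540, Sb06g025770 and Sb02g025720 (r of 0.97 to 0.98). In all, 31 loci exceeded r = 0.9 with Sb04g000620 and 131 with Sb06g023760, or 0.132% and 0.559% of those compared, and neither vacuolar invertase was near the top of the other's list, at ranks 5527 and 6779.

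The neighbours along the chromosomes, taken in the order of the locus numbers and not from coordinates, were read as changes at 6 h against 0 h with the cultivars averaged. Next to Sb04g000620, Sb04g000615 differed by 1.65, Sb04g000630 by −0.02 and Sb04g000640 by 0.17, none called, and Sb04g000610 was well above background on 1 array and not tested. Next to Sb06g023760, Sb06g023750 (−1.05, adjusted p = 0.0277) and Sb06g023780 (−1.38, adjusted p = 0.0166) fell, and Sb06g023740 (−0.40) and Sb06g023770 (−0.33) were not called. Of all probes, 5.46% were called lower in this contrast. Within replicates the 6 h change of Sb06g023780 was −1.82 and −0.94, and that of Sb06g023750 −1.55 and −0.55.

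Cell wall invertases, the acid enzymes that split sucrose outside the cell, were the closest relatives on the arrays. Of 4 listed, Sb03g047060 and Sb06g031930 were tested, while Sb01g008910 was well above background on 1 array and Sb06g031910 on 4. At 6 h against 0 h with the cultivars averaged, 0 of 2 were called, with a median change of −0.27 (0.01 over all probes). Their replicates ran the other way from those of the vacuolar loci. The 6 h change of Sb03g047060 was 0.89 in replicate 1 and −0.92 in replicate 2, and that of Sb06g031930 was 0.23 and −1.29. In the fit by replicate and time, replicate 1 minus replicate 2, both differences were called as positive (1.81, adjusted p = 0.00408, and 1.52, adjusted p = 0.0222), against 3.90% of probes called in that direction and 5.27% in the direction of the vacuolar loci. With both lists of only 2 tested loci, these are values for 4 probes and not for the families.

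Hexokinases and fructokinases phosphorylate the hexoses that invertases release. Of 9 listed, 7 were tested, and 1 fell at 6 h against 0 h with the cultivars averaged, the hexokinase-3-like Sb03g045420 (−1.34, SE 0.28, adjusted p = 0.0157), beside 5.46% of all probes called lower, with a median change of −0.80 over the 7 and 0.01 over all probes. By replicate, 2 of the 7 had a 6 h change called as lower in replicate 1, beside 5.27% of all probes. They were Sb03g045420 and the hexokinase-7-like Sb09g005840, both named after their values were seen. At Sb09g005840 the 6 h changes were −2.07 and 1.502 in Keller (replicates 1 and 2) and −3.55 and 0.93 in BTX623, a difference between the replicates of −4.02 (adjusted p = 0.00112). It thus fell in replicate 1 as Sb04g000620 did, and its replicate 2 values lay above 0 h.

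The other enzymes that cleave or make sucrose, and the sucrose transporters, held 1 call at 6 h against 0 h with the cultivars averaged among 13 tested loci, beside 9.11% of all probes and a median of 0.01 over all probes. Of 3 sucrose synthases, which cleave sucrose in the cytosol, 0 were called (median −0.20). Of 5 sucrose-phosphate synthases, which make sucrose, 1 fell, Sb03g043900 (−1.503, SE 0.26, adjusted p = 0.00835), whose 4 changes of −1.65 to −1.40 were alike in both cultivars and both replicates. Of 6 sucrose transporters, 5 were tested and 0 were called (median 0.65). Of the transporters, Sb01g045720 (0.94, adjusted p = 0.0223) and Sb04g023860 (0.86, adjusted p = 0.0263) passed the adjusted p but stayed under 2-fold. In limma without a block, none of these kinases, synthases, transporters and cell wall invertases was called in any comparison of times within a cultivar or of the cultivars. With the replicate block 2 of the 22 tested were. Over all probes, this block called 2447 of 31950 at 6 h against 0 h in Keller and 2953 of 31949 in BTX623. At 6 h against 2 h it called 179 in Keller and 143 in BTX623. Sb03g043900 fell at 6 h against 0 h in Keller (−1.54, adjusted p = 0.00207) and in BTX623 (−1.47, adjusted p = 0.00247) and at 6 h against 2 h in both (−1.28, adjusted p = 0.0296, and −1.11, adjusted p = 0.0473), and Sb01g045720 rose at 6 h against 0 h in Keller (1.15, adjusted p = 0.0440).

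**Figure D4:**
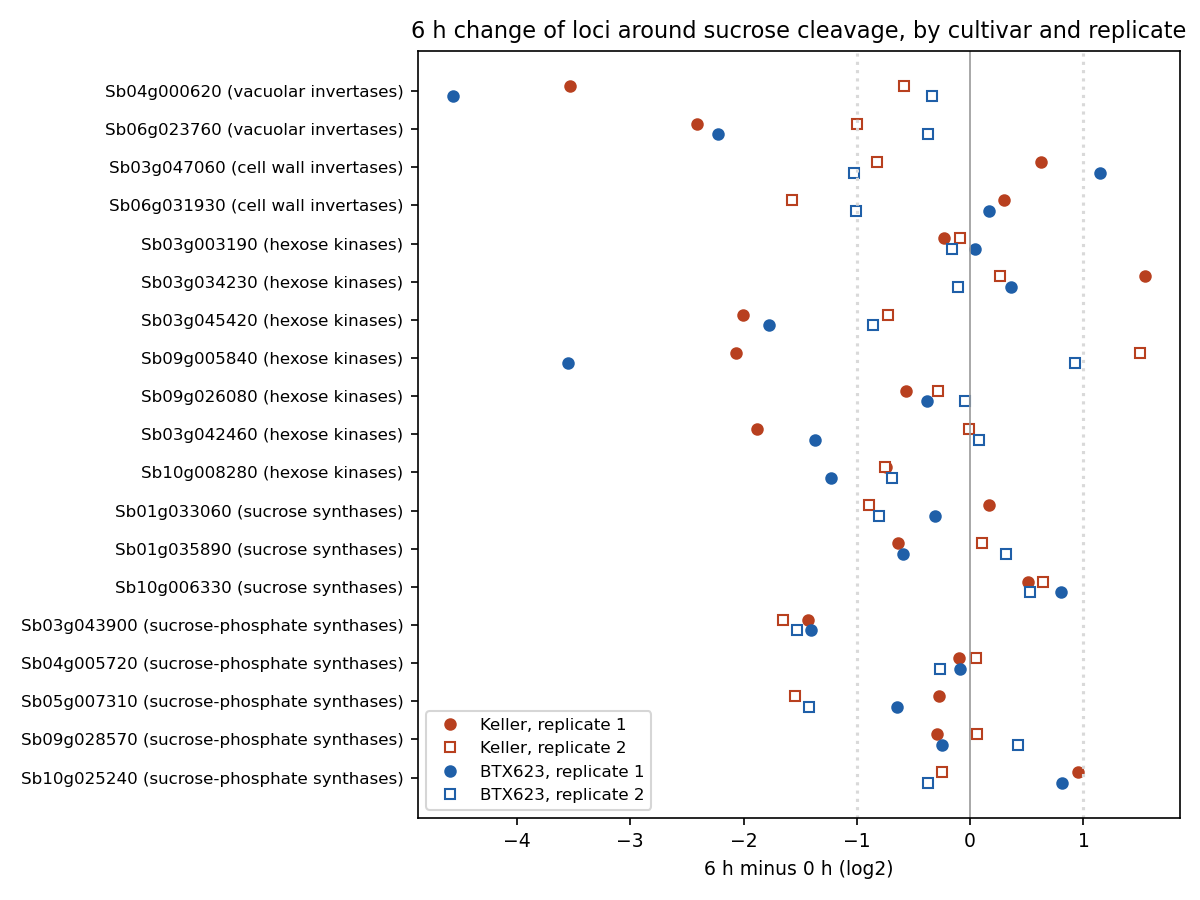
Change from 0 h to 6 h (log2, horizontal axis) of the vacuolar invertases and of the tested cell wall invertases, hexose kinases, sucrose synthases and sucrose-phosphate synthases, 1 point for each cultivar and replicate; red is Keller, blue BTX623, filled circles replicate 1 and open squares replicate 2. Sb04g000620 and Sb09g005840 are widely split by replicate, while Sb03g043900 has all 4 values between −1.65 and −1.40.

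Clock loci and tissue markers were read over the same hours, in which 9.11% of all probes were called. Of 4 clock loci, 2 rose at 6 h against 0 h with the cultivars averaged, Sb04g026190 (3.55, adjusted p = 0.00299) and Sb03g003650 (3.11, adjusted p = 0.00590), and 0 fell. With the replicate block the pseudo-response regulator Sb06g014570, annotated as PRR37-like (−1.48, adjusted p = 0.00485), and Sb07g003870 (−2.17, adjusted p = 5.17e-05) were called too, beside 13% of all probes. Of 3 leaf markers, 1 fell, the NADP-dependent malic enzyme Sb03g003220 (−1.58, adjusted p = 0.00459). The summed level of the 3 leaf markers was 7.19 to 7.30 at 6 h against 7.88 to 7.90 at 0 h in Keller, and 7.39 to 7.52 at 6 h against 8.23 to 8.26 at 0 h in BTX623. Of 2 root cap loci 0 were called, and their summed level was 3.36 to 3.49 at 6 h against 3.03 to 3.15 at 0 h in Keller and 3.25 to 3.51 against 2.72 to 3.14 in BTX623. None of these 5 markers had a 6 h change called as different between the replicates, while 1 clock locus was called higher (Sb04g026190) and 1 lower (Sb03g003650) in replicate 1. Of all probes, 9.17% were called in that contrast. The part of clock, time of day and tissue make-up in the levels of the vacuolar invertases was not tested.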

How the data were processed

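Total RNA of whole seedlings was labelled with Cy3 and hybridised to custom oligonucleotide arrays, 4 to a slide, with 2 biological replicates for each of the 6 groups; which of the study's sowings each replicate number stands for is not given in the sources used here. The deposited files hold spot intensity as written by Agilent Feature Extraction 10.7.1.1 per the file headers, background-subtracted and not scaled between arrays, with other columns, the deposited flags for spots above background, saturated or outlying. A deposited table of the whole series held the same processed intensity (100% of values equal within 0.6%). Here, control spots and spots flagged as outliers were left out, spots of a probe were averaged as log2 of the processed signal, and the 75th percentile of each array was subtracted. Of 41977 probes, 31950 that were well above background on all arrays of at least 1 group were fitted with limma 3.58.1 in R 4.3.3 (a mean per group, a mean-variance trend, 6 residual degrees of freedom, Benjamini-Hochberg adjustment over all probes). Exact permutation tests were run in Python 3.11.15. Scripts were tested on simulated data. Replicate numbers 1 and 2 came from the sample titles. Over the 15 pairs of groups, deviations of same-numbered samples from their group means had correlations of 0.28 to 0.66, all over 0.1, so the numbers were taken to pair the samples. Slide 1 held only replicate 1 and slide 3 only replicate 2, so this check cannot tell a shared replicate from a shared slide. The replicates are named as biological repeats by the study.

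Named were both members, up to 3 called loci of each pathway list, the 5 loci most like each member, and 2 neighbours on each side. The members and lists were chosen with earlier results of these data known. A list of neutral invertases and invertase inhibitors was not made, as the reference table carries no descriptions of loci and the study's own gene lists, the source of the descriptions printed, cover only some loci. The fit by replicate number and time, and the sign changes over paired arrays, were added after the values were seen.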

Additional observations from a re-analysis of the deposited data

Results flagged for a closer look

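These 3 results stood out because the change over time in sucrose differed between the biological replicates in a test of the difference itself, alike in Keller and BTX623. For Sb04g000620 the 6 h change differed by −3.59 between replicate 1 and replicate 2, in a contrast where 9.17% of probes were called. For Sb06g023760 it differed by −1.64 at 6 h and by −2.02 at 2 h, where 4.99% of probes were called, and 5.53% of probes in Keller and 4.86% in BTX623 had a 6 h difference as low. The test was added after the values were seen, and its error is the disagreement between cultivars within a replicate.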

How the results depend on the processing

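Over the alternatives that changed the processing or the model of the 30 tests of the loci, 278 of 298 values kept their direction and their side of the threshold, 4 passed it and 16 turned sign, none of which was called. Many of these values could not turn. Settings that changed only the filter, the variance model, the threshold, the arrays fitted or the replicate block left the estimate as it was. All 16 turns came with normexp, the unscaled table or the slide block. Blocking on the replicate number, the 6 h change against 0 h with the cultivars averaged was called for both loci (−2.26 for Sb04g000620 and −1.501 for Sb06g023760), and the block and pairing changed no other call. With the slide as a block it was called for Sb04g000620 (−2.69), and with only the arrays compared Sb06g023760 was called at 6 h against 2 h (−1.40). For Sb06g023760, sign turned at 2 h against 0 h with normexp (0.0118 in BTX623, −0.0573 in Keller), the unscaled table (0.11 in BTX623, 0.12 averaged) and the slide block (0.44 in BTX623, 0.23 averaged). Keller minus BTX623 turned for Sb04g000620 with normexp at 0 h (−0.00222), with the unscaled table over the times (−0.0231) and with the slide block at 2 h (0.73), and for Sb06g023760 with the unscaled table over the times (−0.0510) and the slide block at 2 h (−0.39) and over the times (−0.41). Differences of the 2 h change turned for Sb06g023760 with normexp (−0.0691) and the slide block (−0.43), and of the 6 h change for Sb04g000620 with the unscaled table (−0.0397) and the slide block (−0.32). The cultivar difference of the ratio of the loci turned with normexp (−0.0934). The cause of these turns was not tested. At 2 h against 0 h the median over all probes tested was 0.20 in the unscaled table and −0.15 with normexp, against −0.02 as reported.

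In the fit by replicate and time, the 0 h difference of Sb04g000620 turned with quantile scaling (−0.17), the unscaled table (−0.63) and the slide block (−0.15). The replicate difference in the 6 h change of Sb06g023760 was not called in the unscaled table (−1.38), nor was its 2 h difference (−1.47). Its 0 h difference was not called with the slide block (1.74), and without BTX623 at 6 h replicate 2 its 6 h change within replicate 2 was called (−1.04).

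Leaving out 1 array at a time turned 29 of 360 values and brought 3 past the threshold, those at 6 h against 0 h with the cultivars averaged (−3.19 to −1.32 for Sb04g000620, called without BTX623 at 6 h replicate 2, and −2.08 to −0.92 for Sb06g023760, called without Keller at 0 h replicate 2 or BTX623 at 0 h replicate 2). The other ranges that held a turned sign were, for Sb04g000620, BTX623 6 h against 2 h (−3.54 to 0.19), Keller 6 h against 2 h (−2.56 to 0.53), Keller against BTX623 at 0 h (−0.13 to 0.37), 2 h (−0.70 to 0.40), 6 h (−1.36 to 2.37) and over the times (−0.46 to 0.78), the difference of the 2 h change (−0.81 to 0.28) and of the 6 h change (−1.47 to 2.26), and the 0 h difference between replicates (−0.0356 to 0.40). For Sb06g023760 they were 2 h against 0 h in BTX623 (−1.34 to 0.92), in Keller (−1.15 to 1.18) and averaged (−0.68 to 0.48), Keller against BTX623 at 0 h (−0.98 to 1.36), 6 h (−0.67 to 0.25) and over the times (−0.26 to 0.52), and the difference of the 2 h change (−0.94 to 1.39) and of the 6 h change (−1.57 to 0.76). With 1 replicate number left out, values were taken without a test. The 2 h change of Sb06g023760 was then −1.11 or 0.91, and the ratio of the loci shifted by −1.73 to 0.22 at 6 h against 0 h, by −1.47 to 1.59 at 6 h against 2 h and by −0.20 to 0.26 between the cultivars. An array left out leaves its group with 1 array, assumed to vary like the other groups. Leaving out an array of a group that a comparison does not use could not move its value, so only part of the 360 values could turn.

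The number of probes called, with its range over the settings in brackets, was 2911 at 6 h against 0 h with the cultivars averaged (1141 to 4301), 777 at 2 h against 0 h (164 to 1802) and 383 at 6 h against 2 h (30 to 1347). At 6 h against 0 h it was 709 in Keller (0 to 2447) and 945 in BTX623 (0 to 2953), and at 2 h against 0 h 50 (0 to 532) and 56 (0 to 758). At 6 h against 2 h it was 0 in each cultivar (up to 179 in Keller and 143 in BTX623). Between the cultivars it was 697 at 0 h (67 to 1027), 747 at 2 h (193 to 1146), 704 at 6 h (175 to 1087) and 1597 over the times (658 to 2102). Leaving out 1 array gave 0 to 393 probes at 6 h against 2 h with the cultivars averaged, 144 to 865 at 2 h against 0 h and 1931 to 2839 at 6 h against 0 h. It gave 55 to 720 in Keller and 79 to 736 in BTX623 at 6 h against 0 h, 0 to 48 and 0 to 51 at 2 h against 0 h, and 0 and up to 22 at 6 h against 2 h. Between the cultivars it gave 412 to 617 at 0 h, 367 to 772 at 2 h, 360 to 731 at 6 h and 1357 to 1659 over the times. With 2 arrays a group and 1 probe a locus, the number of arrays limits every value, both loci being well above background throughout.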
